A study of Mus musculus with 12 samples.

Results

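The 10 genes described here are expressed as cartilage cells enlarge and as the first bone-forming cells appear. They were Ihh, Pth1r, Panx3, Phex, Alpl, Ibsp, Spp1, Sp7, Dlx5 and Dlx6, chosen by name, and all 10 were found among the 31723 genes of the expression table. Their transcripts carried 19 of the 46758 m6A peaks listed for cKO and 22 of the 41196 listed for cHet. The RNA came from mouse limb buds at embryonic stage E12.5. The knockout, cKO, had 2 floxed alleles of Mettl14 (flox/flox), and its control, cHet, had 1 floxed and 1 wild-type allele (wt/flox). Mettl14 encodes the partner subunit of the methyltransferase that places N6-methyladenosine (m6A) on RNA. The sources used here do not name the Cre driver or the cells in which it acts, nor do the labels say whether a replicate pooled several embryos. Each genotype had 3 biological replicates of directly sequenced input RNA and 3 of RNA immunoprecipitated with an antibody against m6A.

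In a limb cartilage, proliferating chondrocytes leave the cell cycle and enlarge, and the flattened tissue around them forms the first osteoblasts. Prehypertrophic chondrocytes secrete Indian hedgehog (Ihh), which drives chondrocyte proliferation and osteoblast formation and, through parathyroid hormone-related protein (Pthlh) and its receptor Pth1r, delays further enlargement. Panx3 encodes a channel protein of prehypertrophic and hypertrophic chondrocytes and osteoblasts. Phex is a membrane peptidase that protects mineralisation, and Alpl is the alkaline phosphatase that removes the mineralisation inhibitor pyrophosphate. Ibsp (bone sialoprotein) and Spp1 (osteopontin) are acidic proteins of mineralising matrix. Sp7 (osterix) is a transcription factor required for osteoblasts, and the neighbouring homeobox genes Dlx5 and Dlx6 act in the apical ectodermal ridge as well as in cartilage and bone.

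RefSeq promoter windows of assembly GRCm38.p6 matched 6 of the 10 genes, namely Ihh, Phex, Pth1r, Ibsp, Alpl and Spp1. The windows of 3 genes are shown because these stand for the 3 patterns described below: a ligand with lower RNA in every cKO library, a matrix gene lower by a smaller margin, and a receptor higher in every cKO library. Pth1r had 3 annotated starts and Spp1 had 2, and the window shown is that of the start nearest to the gene's start in the expression table. Each is the 250 bases before that start, 5′ to 3′ on the gene's strand. Capitals mark matches to the core motif of RUNX factors (TGTGGT, or ACCACA on the other strand), to CCAAT (or ATTGG on the other strand), or to the homeodomain motif TAATTA, which reads the same on both strands. No match of one motif overlapped a match of another here. These motifs occur in 14.0%, 33.8% and 4.84% of all 32851 windows of this length, in that order.
Ihh, chr1:74951673-74951922, minus strand: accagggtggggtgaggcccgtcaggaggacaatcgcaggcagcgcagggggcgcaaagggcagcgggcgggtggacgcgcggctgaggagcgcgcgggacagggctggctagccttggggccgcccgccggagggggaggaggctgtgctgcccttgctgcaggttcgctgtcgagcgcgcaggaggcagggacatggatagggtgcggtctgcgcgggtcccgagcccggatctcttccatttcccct
Spp1, chr5:104434861-104435110, plus strand: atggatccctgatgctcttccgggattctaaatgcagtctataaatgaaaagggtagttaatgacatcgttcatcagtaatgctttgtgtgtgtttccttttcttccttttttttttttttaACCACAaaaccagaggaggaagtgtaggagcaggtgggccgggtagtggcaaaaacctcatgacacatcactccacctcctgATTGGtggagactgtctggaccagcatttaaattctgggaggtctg
Pth1r, chr9:110747146-110747395, minus strand: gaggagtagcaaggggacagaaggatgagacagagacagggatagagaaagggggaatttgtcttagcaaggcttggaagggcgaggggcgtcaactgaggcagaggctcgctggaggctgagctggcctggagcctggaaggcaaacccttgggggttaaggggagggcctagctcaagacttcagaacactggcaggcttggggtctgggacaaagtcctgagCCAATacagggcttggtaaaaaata
The Ihh window held no match, this Spp1 window held ACCACA and ATTGG, and this Pth1r window held CCAAT. The other Spp1 window held TAATTA, and the other Pth1r windows held no match. A match is a run of letters and not a measured binding site.

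Levels are FPKM in input RNA, fragments scaled to gene length and library total. Mettl14 itself was measured at 2.67, 3.07 and 2.63 FPKM in cKO libraries 1, 2 and 3, against 5.08, 4.54 and 4.39 FPKM in cHet libraries 1, 2 and 3. All cKO libraries lay below all cHet libraries, at 59.8% of the cHet mean (limma log2 change -0.58, adjusted p = 0.00289). The library sums of FPKM were 237287.9 to 255907.3 in cKO and 261691.5 to 275299.5 in cHet, and read depth cannot be recovered from the table. Across genes, log2(FPKM + 1) correlated at 0.976 to 0.989 within a genotype and at 0.950 to 0.971 between genotypes. In bulk limb RNA, fewer cells of a type and less RNA per cell cannot be told apart.

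Most of these genes had lower RNA in cKO. In 8 of the 10 every cKO library lay below every cHet library, whereas this held for 24.6% of the 15496 genes averaging 0.5 FPKM or more and for 25.1% of the 13575 averaging 1 FPKM or more. In 1 gene, Pth1r, every cKO library lay above every cHet library, which held for 25.1% and 26.0% of genes at these minimums. In Dlx5 the genotypes overlapped. Genes were tested with limma on log2(FPKM + 1) where the mean over the 6 libraries reached 1 FPKM, as it did for 7 of the 10. Of these 7, Panx3, Phex and Dlx6 fell and Pth1r rose at an adjusted p under 0.05, whereas Sp7, Alpl and Dlx5 did not pass. Over all 13575 genes tested, 17.5% fell and 18.7% rose, 36.2% in all. Without cHet replicate 2, which also brought the mean of Panx3 under 1 FPKM, 2 of the 6 genes then tested passed, and 2758 of all 13564 genes tested did. With the minimum lowered to 0.5 FPKM all 10 were tested, and Ihh, Ibsp and Spp1 fell too, which made 6 that fell and 1 that rose, while 16.5% of the 15496 genes fell and 17.3% rose, 33.8% in all. The median log2 change of the 10 genes in that fit was -0.56, and that of the 7 genes was -0.29, beside 0.00 over all genes tested at the higher minimum. Both minimums applied to the mean over all 6 libraries. Panx3, Phex and Alpl reached 1 FPKM only through their cHet level, and Ihh, Panx3 and Ibsp reached 0.5 FPKM only through theirs. Their entry into the tests thus depended on the genotype in which they were higher. Of the related genes named below, Hhip and Runx3 reached 1 FPKM only through cHet and Sp6 only through cKO. All log2 changes are cKO over cHet on the log2(FPKM + 1) scale, which understates changes of genes near or below 1 FPKM.

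**Figure D1:**
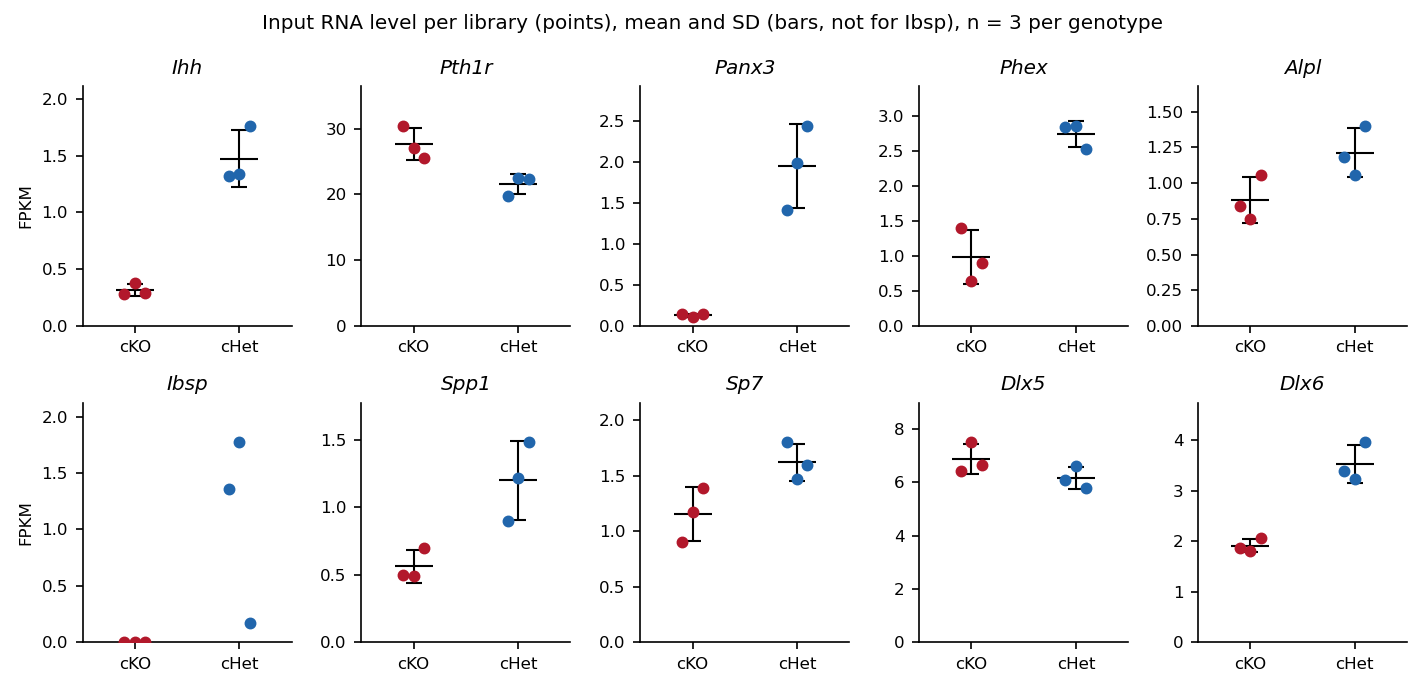
Input RNA level (FPKM) of each of the 10 genes in the 3 cKO libraries (left in each panel) and the 3 cHet libraries (right); points are libraries, and bars the mean and SD, which are not drawn for Ibsp. The cKO points lie below all cHet points in 8 panels, above them for Pth1r and among them for Dlx5.

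Ihh, the ligand (ENSMUSG00000006538, chr1:74945315-74951672 on mm10, minus strand), was measured at 0.278, 0.374 and 0.293 FPKM in cKO, against 1.32, 1.34 and 1.76 FPKM in cHet. The highest cKO library lay far below the lowest cHet library, and the means were 0.315 ± 0.0515 FPKM in cKO and 1.47 ± 0.249 FPKM in cHet (SD, n = 3 each). This is 21.4% of the cHet level. With a mean of 0.893 FPKM, Ihh lay just under the minimum of 1 FPKM. In the limma fit with the minimum of 0.5 FPKM its log2 change was -0.91 (SE 0.0935, adjusted p = 0.00155).

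Genes that read out Hedgehog signalling were lower as well. Ptch1, the Hedgehog receptor and a target of the pathway, averaged 3.79 ± 0.290 FPKM in cKO and 5.50 ± 0.0825 FPKM in cHet (limma log2 change -0.44, adjusted p = 0.00370). Gli1, a transcription factor that the pathway induces, averaged 6.23 ± 0.560 FPKM in cKO and 10.7 ± 1.92 FPKM in cHet (limma log2 change -0.68, adjusted p = 0.00690). Hhip, a ligand-binding inhibitor that the pathway induces, averaged 0.609 ± 0.0839 FPKM in cKO and 1.66 ± 0.238 FPKM in cHet (limma log2 change -0.73, adjusted p = 0.00264). These were the 3 genes that fell among the 12 tested of a list of 16 Hedgehog genes. On the same list Gli3, which acts largely as a repressor of Hedgehog targets, rose to 30.9 ± 2.68 FPKM in cKO, against 15.2 ± 1.04 FPKM in cHet (limma log2 change 0.98, adjusted p = 7.95e-04). Kif7, a regulator of Gli proteins at the cilium, rose too (limma log2 change 0.32, adjusted p = 0.00600), and the other 7 did not pass, among them Smo, the signal transducer, at 32.4 FPKM in cKO and 32.5 FPKM in cHet. The median log2 change of the 12 was 0.03. Shh and Dhh, the other Hedgehog ligands, stayed below the minimum.

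Pth1r, the receptor (ENSMUSG00000032492, chr9:110722085-110747145, minus strand), had the highest level of the 10 genes. It was measured at 30.4, 27.1 and 25.5 FPKM in cKO, against 19.8, 22.5 and 22.3 FPKM in cHet. The groups were separate but close, with means of 27.7 ± 2.49 FPKM in cKO and 21.5 ± 1.50 FPKM in cHet (SD, n = 3 each), a 1.28-fold level. Pth1r rose in the limma fit (log2 change 0.35, SE 0.0841, adjusted p = 0.0197), and the call depended on 2 single libraries. Without cKO replicate 2 the adjusted p of limma was 0.0560, and without cHet replicate 2 it was 0.0502. Its ligand Pthlh went the other way, at 1.71, 0.874 and 1.29 FPKM in cKO, against 2.04, 1.93 and 2.59 FPKM in cHet. The Pthlh groups did not overlap and the gene fell in the limma fit (log2 change -0.49, adjusted p = 0.0444), but leaving out any single library except cKO replicate 1 moved the adjusted p to between 0.0746 and 0.112.

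Panx3, the channel (ENSMUSG00000011118, chr9:37659902-37669235, minus strand), had the lowest cKO level relative to cHet among the 9 genes with a level above 0 in every library. It was measured at 0.140, 0.103 and 0.143 FPKM in cKO, against 1.42, 1.99 and 2.44 FPKM in cHet. All cKO libraries were far below all cHet libraries, and the means of 0.129 ± 0.0222 FPKM in cKO and 1.95 ± 0.512 FPKM in cHet (SD, n = 3 each) set cKO at 6.61% of cHet. The limma log2 change was -1.37 (SE 0.135, adjusted p = 0.00117), which ranked Panx3 34 from the lowest of 13575 genes. The widely expressed relative Panx1 rose, to 7.23 ± 0.135 FPKM in cKO, against 4.80 ± 0.280 FPKM in cHet (limma log2 change 0.51, adjusted p = 0.00200). Within each library the ratio of Panx3 to Panx1 was 0.0179 ± 0.00335 in cKO and 0.409 ± 0.123 in cHet (SD, n = 3 each, exact two-sided permutation p = 0.1, the smallest that 3 against 3 allows).

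The genes whose levels most resembled those of Panx3 over the 6 libraries, by Pearson correlation of log2(FPKM + 1), were Sec61a1 (0.9988), Raly (0.9986), Srgn (0.9981), Snd1 (0.9972) and Fgfr3 (0.9972). In all, 206 genes other than Panx3 lay above 0.98, the named genes included. The 6 points fall in 2 separate genotypes and share their libraries, so the values are given as a description with no p.

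Phex, the peptidase (ENSMUSG00000057457, chrX:157162075-157415312, minus strand), was measured at 1.40, 0.649 and 0.902 FPKM in cKO, against 2.85, 2.86 and 2.53 FPKM in cHet. The cKO libraries differed among themselves by more than the cHet libraries did, and all of them lay below cHet. The means were 0.982 ± 0.380 FPKM in cKO and 2.74 ± 0.185 FPKM in cHet (SD, n = 3 each), 35.8% of cHet, and Phex fell in the limma fit (log2 change -0.93, SE 0.140, adjusted p = 0.00376). Other membrane peptidases on a list of relatives moved differently: Ece1 rose (limma log2 change 0.31, adjusted p = 0.0197, but 0.0625 to 0.0702 without cKO replicate 2, cKO replicate 3 or cHet replicate 2), and Mme had a limma log2 change of -0.19 (adjusted p = 0.232).

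Alpl, the phosphatase (ENSMUSG00000028766, chr4:137741733-137796384, minus strand), was measured at 0.837, 0.749 and 1.06 FPKM in cKO, against 1.18, 1.06 and 1.40 FPKM in cHet. The highest cKO library and the lowest cHet library were equal at this rounding, so the groups were separated only nominally. The means were 0.882 ± 0.161 FPKM in cKO and 1.21 ± 0.169 FPKM in cHet (SD, n = 3 each), and the limma log2 change of -0.23 did not pass (SE 0.101, adjusted p = 0.112).

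The matrix gene Ibsp (ENSMUSG00000029306, chr5:104299171-104311469, plus strand) was listed at 0 in all 3 cKO libraries, against 1.36, 1.77 and 0.172 FPKM in cHet. The third cHet library was far below the other cHet libraries. In the limma fit with the minimum of 0.5 FPKM the log2 change was -0.98 (SE 0.301, adjusted p = 0.0448), a size that depends on the added 1 FPKM because one genotype is at 0. The call was lost without any 1 of the cKO replicates or without cHet replicate 1 or 2, where the adjusted p of limma was 0.0986 to 0.125, and was kept without cHet replicate 3 (limma log2 change -1.36, adjusted p = 0.00205). Over the whole table, 7 genes were at 0 in every cKO library and at 1 FPKM or more in a cHet library. Another count found 7 genes at 0 in a library and at 10 FPKM or more in another library of either genotype. These counts cannot tell missed RNA from absent RNA, and a listed 0 is not read here as absence.

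Spp1 (ENSMUSG00000029304, chr5:104435118-104441050, plus strand), beside Ibsp on the same chromosome and the gene whose window above holds ACCACA and ATTGG, was measured at 0.499, 0.488 and 0.701 FPKM in cKO, against 0.898, 1.22 and 1.48 FPKM in cHet. All cKO libraries were lower, with means of 0.563 ± 0.120 FPKM in cKO and 1.20 ± 0.290 FPKM in cHet (SD, n = 3 each), 47.0% of cHet. In the limma fit with the minimum of 0.5 FPKM Spp1 fell (log2 change -0.49, SE 0.117, adjusted p = 0.0207). The adjusted p of limma was 0.0593 without cKO replicate 1, 0.0714 without cKO replicate 2 and 0.0716 without cHet replicate 2. Spp1 is also made by macrophages, and the summed level of 12 macrophage markers was 33.7 to 38.9 FPKM in cKO and 30.0 to 36.5 FPKM in cHet. None of the 9 macrophage markers tested passed in the limma fit, and 0 had an unadjusted p under 0.05.

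Sp7, the osteoblast factor (ENSMUSG00000060284, chr15:102356606-102367182, minus strand), was measured at 0.904, 1.17 and 1.39 FPKM in cKO, against 1.80, 1.47 and 1.60 FPKM in cHet. The cKO libraries were lower without overlap but by a small margin, at means of 1.15 ± 0.242 FPKM in cKO and 1.62 ± 0.166 FPKM in cHet (SD, n = 3 each). The limma log2 change of -0.29 did not pass (SE 0.106, adjusted p = 0.0737). Its relative Sp6, a factor of surface ectoderm and teeth, rose to 1.72 ± 0.213 FPKM in cKO, against 0.611 ± 0.343 FPKM in cHet (limma log2 change 0.78, adjusted p = 0.0116).

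The neighbouring homeobox genes differed from each other. Dlx5 (ENSMUSG00000029755, chr6:6877805-6882085, minus strand) was measured at 6.43, 7.49 and 6.64 FPKM in cKO, against 6.09, 6.61 and 5.80 FPKM in cHet. The ranges overlapped, with means of 6.85 ± 0.562 FPKM in cKO and 6.17 ± 0.410 FPKM in cHet (SD, n = 3 each, limma log2 change 0.13, SE 0.0767, adjusted p = 0.221). Dlx6 (ENSMUSG00000029754, chr6:6863334-6868568, plus strand) was measured at 1.88, 1.81 and 2.06 FPKM in cKO, against 3.40, 3.23 and 3.96 FPKM in cHet. Its groups were widely separated, at 1.92 ± 0.131 FPKM in cKO and 3.53 ± 0.381 FPKM in cHet (SD, n = 3 each), and Dlx6 fell (limma log2 change -0.63, SE 0.0837, adjusted p = 0.00264). The ratio of Dlx6 to Dlx5 within a library was 0.293, 0.241 and 0.311 in cKO, against 0.559, 0.489 and 0.682 in cHet (exact two-sided permutation p = 0.1, the smallest that 3 against 3 allows). The cKO ratios were all lower.

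The Dlx6 value carries an uncertainty of counting. The antisense gene Dlx6os1 (chr6:6820189-6871592, minus strand) covers all of Dlx6, and no source used here says whether counting used strand, so reads of the pair cannot be told apart. Dlx6os1 was listed at 0.246, 0.195 and 0.308 FPKM in cKO, against 0.503, 0.423 and 0.605 FPKM in cHet. These values were lower in all cKO libraries. Another entry named Dlx6os1 (chr6:6871488-6871633, minus strand) lies outside Dlx6. It was listed at 0.141, 0.359 and 0 FPKM in cKO, against 0.167, 0.383 and 0.499 FPKM in cHet, which overlapped. Each entry stayed under both minimums and was not tested.

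Dlx1, Dlx2 and Dlx3 rose, opposite to Dlx6. Dlx2, a homeobox factor of the same family, rose to 2.12 ± 0.346 FPKM in cKO, against 1.24 ± 0.0632 FPKM in cHet (limma log2 change 0.47, adjusted p = 0.0111). Dlx1 (limma log2 change 0.39, adjusted p = 0.0316) and Dlx3 (limma log2 change 0.48, adjusted p = 0.0287) also passed, Dlx3 with an adjusted p of 0.0926 without cKO replicate 2, 0.0806 without cKO replicate 3 and 0.0706 without cHet replicate 2. Dlx1 had an adjusted p of 0.106 without cKO replicate 2, 0.0894 without cKO replicate 3, 0.0626 without cHet replicate 1 and 0.109 without cHet replicate 2. These were the 3 genes tested of a list of 6, with a median log2 change of 0.47. Dlx genes are expressed in surface ectoderm, and the summed level of 15 epidermis and apical ridge markers was 208 to 218 FPKM in cKO and 176 to 198 FPKM in cHet. Of the 13 tested markers 4 rose, 1 fell and 8 did not pass. Sp6 is itself on this marker list and among the 4 that rose. Fgf8, a ridge marker, was at 0.891, 1.03 and 1.26 FPKM in cKO, against 0.972, 0.839 and 0.876 FPKM in cHet, which overlapped. Sp8, on the same marker list, was at 0.975, 1.34 and 1.23 FPKM in cKO, against 0.619, 0.609 and 0.631 FPKM in cHet. These did not overlap, and Sp8 rose in the limma fit with the minimum of 0.5 FPKM (log2 change 0.43, adjusted p = 0.0107). The part of ectoderm in the Dlx, Sp6 and Sp7 values was not tested.

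**Figure D2:**
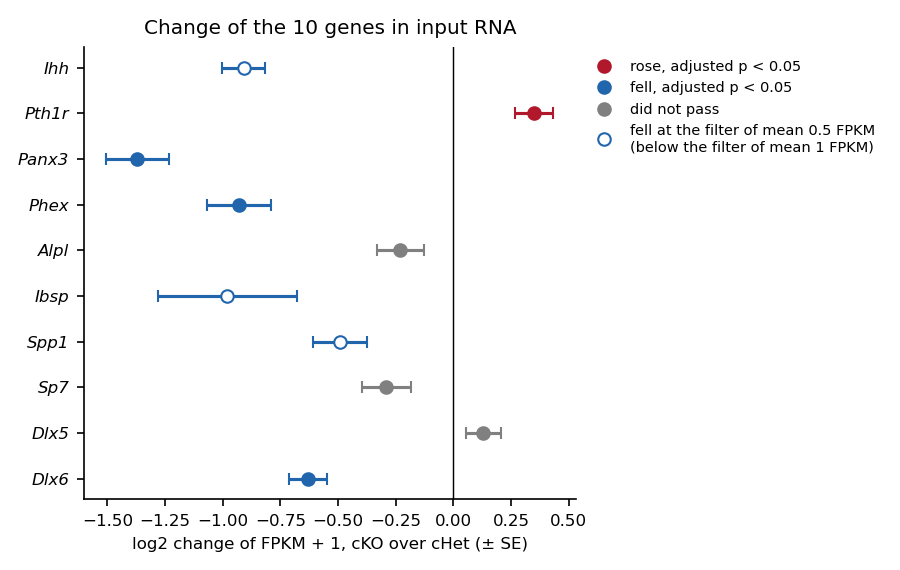
Log2 change of each gene, cKO over cHet, with its standard error, from the limma fits on log2(FPKM + 1). Panx3 lies lowest at -1.37, Pth1r is highest at 0.35, and Sp7, Alpl and Dlx5 are the genes that did not pass.

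By FPKM, a scale that corrects for length, the mean levels in cKO descended in the order Pth1r (27.7), Dlx5 (6.85), Dlx6 (1.92), Sp7 (1.15), Phex (0.982), Alpl (0.882), Spp1 (0.563), Ihh (0.315), Panx3 (0.129) and Ibsp. In cKO the library ranges of Sp7, Phex and Alpl overlapped, and those of other neighbours did not. In cHet the order of mean levels was Pth1r (21.5), Dlx5 (6.17), Dlx6 (3.53), Phex (2.74), Panx3 (1.95), Sp7 (1.62), Ihh (1.47), Alpl (1.21), Spp1 (1.20) and Ibsp. In cHet, neighbours overlapped between Panx3 and Ibsp, and the 4 genes above them did not overlap any neighbour.

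Markers of fully hypertrophic cartilage and of mature bone were low in both genotypes at this stage. Col10a1, the collagen that defines hypertrophic cartilage, was at 0.0417, 0 and 0.0629 FPKM in cKO, against 0.275, 0.417 and 0.422 FPKM in cHet. All cKO values were lower, and none of the 6 libraries reached 0.5 FPKM. Mmp13, the late hypertrophic collagenase, was at 0, 0.0133 and 0.0203 FPKM in cKO and at 0.0363, 0 and 0 FPKM in cHet. The osteocalcin gene Bglap was at 0.0871, 0.260 and 0.149 FPKM in cKO, against 0, 0.117 and 0.112 FPKM in cHet, which overlapped. The names hypertrophic and osteoblast therefore describe where these genes are known to act, and not a mature cell type seen in these limb buds.

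A list of 16 genes known from hypertrophic cartilage held 10 tested genes. Of these 8 fell, 1 rose and 1 missed the threshold, and the median log2 change over the 10 was -0.42. Runx2, a factor that drives chondrocyte hypertrophy and bone formation, averaged 2.15 ± 0.266 FPKM in cKO and 3.82 ± 0.291 FPKM in cHet (limma log2 change -0.61, adjusted p = 0.00322). Its relative Runx3 fell too, at means of 0.491 FPKM in cKO and 1.53 FPKM in cHet (limma log2 change -0.76, adjusted p = 0.00378). Without any single cHet library Runx3 was under the minimum and was not tested. Mef2c, which promotes hypertrophy, averaged 5.31 ± 0.366 FPKM in cKO and 7.27 ± 0.689 FPKM in cHet (limma log2 change -0.39, adjusted p = 0.0119), and Fgfr3, the receptor that restrains chondrocyte proliferation, averaged 3.46 ± 0.103 FPKM in cKO and 5.39 ± 0.524 FPKM in cHet (limma log2 change -0.52, adjusted p = 0.00363). Matn3, a cartilage matrix protein (limma log2 change -0.45, adjusted p = 0.0153), and the surface protein Cd200 (limma log2 change -0.40, adjusted p = 0.00634) fell too. The others that fell were Pthlh and Vegfa (limma log2 change -0.18, adjusted p = 0.0306), and Vegfa had an adjusted p of 0.487 after rescaling to TPM and of 0.0654 with quantile normalization. Without cKO replicate 2, cKO replicate 3, cHet replicate 1 or cHet replicate 2 the adjusted p of Vegfa was 0.0511 to 0.107. The gene that rose was Dlx3.

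Of 24 genes of osteoblasts and mineral, 15 were tested. The calls went both ways, with 4 that rose, 5 that fell and 6 that missed the threshold, and the median log2 change over the 15 was -0.10. The matrix genes Col1a2 (limma log2 change -0.99, adjusted p = 0.00202) and Sparc (limma log2 change -0.82, adjusted p = 0.00351) fell beside Runx2. The transcription factors Msx2 (limma log2 change 1.28, adjusted p = 5.93e-04) and Twist1 (limma log2 change 0.34, adjusted p = 0.00634) rose. The other calls were Bmp2 and Twist2, which fell (limma adjusted p = 0.0266 and 0.0278), and the phosphate transporters Slc20a1 and Slc20a2, which rose (limma adjusted p = 0.0382 and 0.0242). Each of these 4 missed the threshold without at least 1 of the libraries, at adjusted p of up to 0.108. Col1a1, the other chain of type I collagen, had a limma log2 change of -0.59 (adjusted p = 0.166), or -0.88 without cHet replicate 1 (adjusted p = 0.0350).

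**Figure D3:**
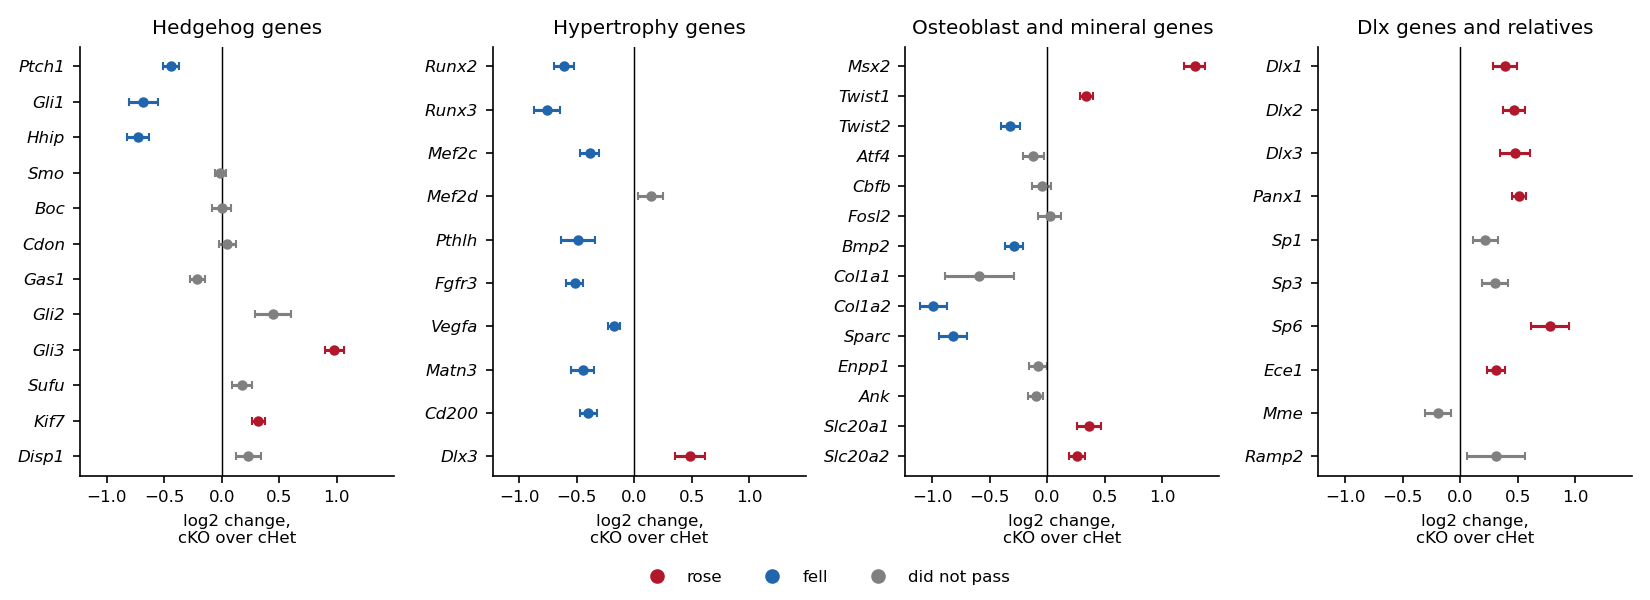
Log2 change, cKO over cHet, with its standard error, of tested genes around the 10 genes, grouped as the Hedgehog pathway, hypertrophic cartilage (which holds Runx2 and Pthlh), osteoblast and mineral genes, and Dlx genes with other relatives. Most hypertrophic genes lie below 0, the Hedgehog targets Gli1, Hhip and Ptch1 lie below 0 and Gli3 above, and Dlx1, Dlx2 and Dlx3 lie above 0.

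Markers of some other cells differed between genotypes and those of others did not. The summed level of 14 resting and proliferating chondrocyte genes was 146 to 171 FPKM in cKO and 280 to 295 FPKM in cHet, and of 13 tested 10 fell, 0 rose and 3 did not pass, with 0 higher and 11 lower at an unadjusted limma p under 0.05. The cKO sums were all lower, as were the levels of Ihh, Panx3 and Phex. The sum of 10 limb mesenchyme genes was 551 to 662 FPKM in cKO and 412 to 420 FPKM in cHet, and 6 of the 9 tested rose. Hoxd13 alone, which rose, averaged 237 FPKM in cKO and 140 FPKM in cHet, a large part of these sums. Prrx1, Msx1 and Tbx4 did not pass. Muscle genes summed to 287 to 452 FPKM in cKO and 469 to 513 FPKM in cHet, and 6 of the 9 tested fell. Endothelial genes summed to 51.5 to 58.4 FPKM in cKO and 60.9 to 69.0 FPKM in cHet, and 2 of the 9 tested fell. Nerve and Schwann cell genes overlapped, at 17.4 to 19.4 FPKM in cKO and 16.3 to 18.5 FPKM in cHet, as macrophage genes did, and of the 5 nerve genes tested 1 rose and 1 fell. None of these markers was at 0 in all 6 libraries, and the part of any of these cells in the results was not tested.

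The authors' deposited lists give m6A peaks, 1 list per genotype, with a log2 enrichment of immunoprecipitated over input RNA for each peak. These values are the authors', have no replicates, and are given side by side without a test. In the deposited lists 8 of the 10 genes had a peak in cKO, where Panx3 and Ibsp had none, and all 10 had one in cHet. Of the 19 cKO peaks, 2 (10.5%) had no overlapping cHet peak, beside 20.8% of all cKO peaks. Of the 22 cHet peaks, 7 (31.8%) had no overlapping cKO peak, beside 12.9% of all cHet peaks. Where an overlap of 50% of both peaks was required, 10 cKO peaks (52.6%, beside 44.5% of the list) and 13 cHet peaks (59.1%, beside 37.0% of the list) had none. Stop codon peaks made up 3 of the 19 cKO peaks (15.8%, against 15.2% of the whole cKO list) and 9 of the 22 cHet peaks (40.9%, against 18.9% of the whole cHet list). Among these cHet stop codon peaks, only those of Panx3 and Ibsp had no overlapping cKO peak. Those of Ihh, Phex, Sp7 and Dlx6 overlapped cKO peaks with other bounds, labelled 3′UTR, exonic or start codon. The difference in labels is therefore not a count of lost peaks. The median log2 enrichment of the peaks was 1.52 in cKO and 1.99 in cHet, beside 1.59 over the whole cKO list and 1.87 over the whole cHet list.

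The share of genes with a cKO peak varied with input level. Among genes with a cHet peak and a cHet mean of 1 to 3 FPKM, a cKO peak was listed for 0 of 4 genes with a cKO mean under 0.2 FPKM, the range of Panx3 and Ibsp. It was listed for 44 of 53 (83.0%) at 0.2 to 0.5 FPKM, the range of Ihh, and for 286 of 299 (95.7%) at 0.5 to 1 FPKM. At 1 to 2 FPKM the count was 1145 of 1161 (98.6%). The genes described here were not left out of these counts: Panx3 and Ibsp are among the 4, and Ihh is among the 53. The 0 of 4 is therefore not independent of their own missing peaks. The part of input level in the missing Panx3 and Ibsp peaks was not tested.

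**Figure D4:**
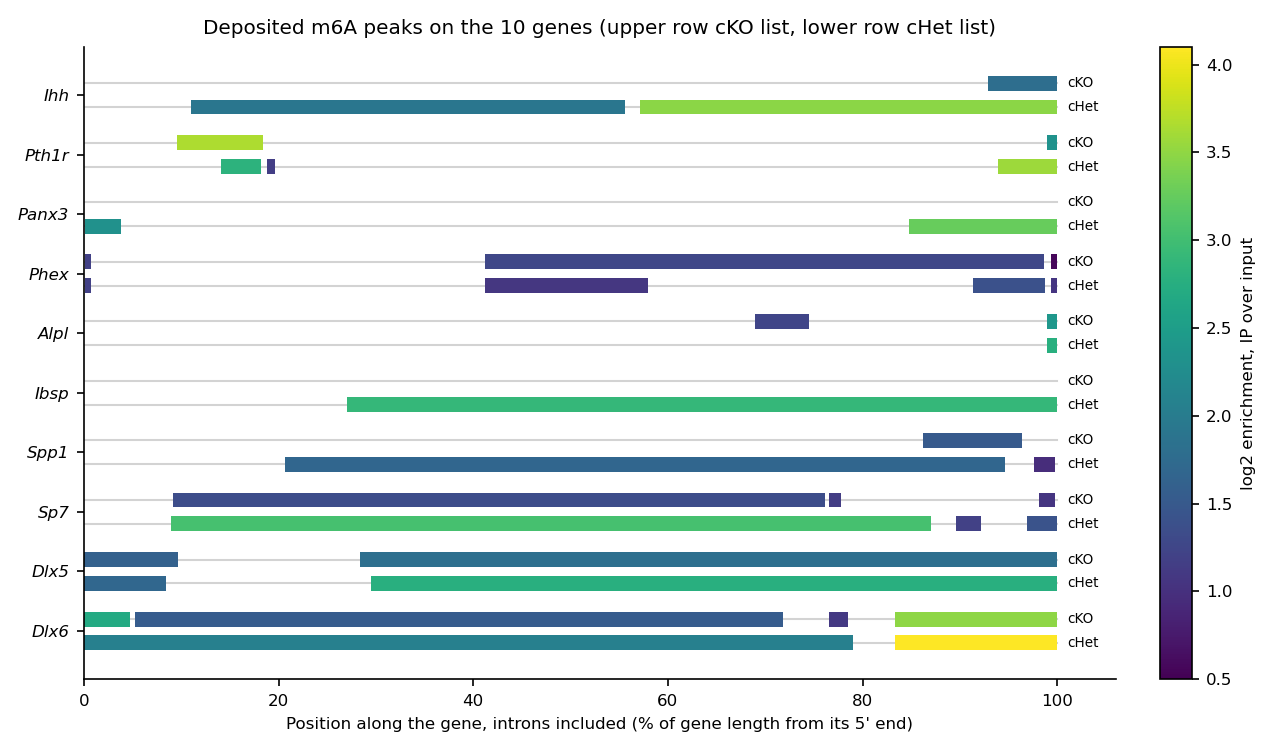
Position of each deposited m6A peak along the 10 genes, as % of gene length from the 5′ end with introns included, cKO list in the upper line of each pair and cHet list in the lower, coloured by log2 enrichment of IP over input. Panx3 and Ibsp have no bar in the cKO line, and the last Dlx6 peak has the strongest colour at 4.09 in cHet.

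For the cHet-only genes, the authors' deposited cHet list gave Panx3 a stop codon peak (chr9:37659902-37661326, log2 enrichment 3.27) and a start codon peak (chr9:37668877-37669226, log2 enrichment 2.30). It gave Ibsp a single peak over its stop codon (chr5:104302496-104311469, log2 enrichment 2.90), whose span includes introns. Both genes were near or at 0 in cKO input RNA. Ihh kept a peak at its transcript end in both deposited lists, over 450 bases in cKO (chr1:74945315-74945764, 3′UTR, log2 enrichment 1.79) and over 2726 bases in cHet (chr1:74945315-74948040, stop codon, log2 enrichment 3.48). A second Ihh peak within the exons stood in the deposited cHet list alone (chr1:74948141-74950974, log2 enrichment 1.92).

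Pth1r, the gene that rose, had opposite orders at its ends in the peaks that overlapped between the deposited lists. Its stop codon peak had a log2 enrichment of 2.32 in cKO (chr9:110722085-110722334) and 3.57 in cHet (chr9:110722085-110723610). Its shared 5′UTR peak had 3.65 in cKO (chr9:110742536-110744739) and 2.82 in cHet (chr9:110742586-110743620). A further 5′UTR peak stood in the deposited cHet list alone (chr9:110742236-110742435, log2 enrichment 1.16). In rank within its own deposited list, the stop codon peak lay at percentile 81.2 in cKO and 95.1 in cHet. The shared 5′UTR peak lay at percentile 98.4 in cKO and 78.6 in cHet.

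The Dlx genes kept their peaks. In the authors' deposited lists the last 3′UTR peak of Dlx6 had the same bounds in both genotypes (chr6:6867694-6868568) and a log2 enrichment of 3.49 in cKO and 4.09 in cHet, the highest of any peak on the 10 genes in cHet. The stop codon peak of Dlx5 had 1.80 in cKO and 2.77 in cHet, and its start codon peak 1.61 in cKO and 1.69 in cHet. Both Dlx genes thus had peaks in both lists, and of their RNA levels only that of Dlx6 passed the test. Without strand, peaks on Dlx6 could also come from Dlx6os1.

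The remaining genes had peaks in both deposited lists. The 3′UTR peak of Alpl had a log2 enrichment of 2.40 in cKO and 2.77 in cHet, and a start codon peak of Alpl (chr4:137755683-137758679, log2 enrichment 1.24) stood in the deposited cKO list alone. The stop codon peak of Spp1 had 1.51 in cKO and 1.68 in cHet. Sp7 had 3 deposited cKO peaks of 1.06, 1.14 and 1.33, while the cHet list held a long peak over its stop codon (chr15:102357981-102366241, log2 enrichment 3.04) with further peaks of 1.42 and 1.20. Phex had low enrichment throughout the deposited lists, between 0.57 and 1.52 in cKO and between 1.05 and 1.39 in cHet.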

How the data were processed

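Limb bud RNA of 12 libraries in 4 groups was considered, and the 6 input libraries, 3 per genotype, were compared. Per the submitters' processing notes, reads were handled with fastp and HISAT2 on mm10. Per the file headers, the authors deposited FPKM of 31723 genes for each input library. The sources used here do not give the FPKM program, annotation, use of strand, peak caller, scaling of IP to input and combination of replicates. Per-peak values in the authors' deposited lists are a log2 fold enrichment, a p-value, an adjusted p-value and a peak length in bases, per the file headers. Starts in the lists were taken to count from 0, so 1 was added. The reason is that 6859 cKO and 6070 cHet peaks began 1 base before their gene's start, and 0 began at it. The deposited peak length, however, equals end minus start plus 1 in every peak, as it would for starts counted from 1. Starts and spans given here may therefore be off by 1 base. Per-library IP values were not used here, and 0 expression columns lacked a sample.

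Genes averaging 1 FPKM or more were tested with limma (lmFit and eBayes with a trend, limma 3.58.1 in R 4.3.3) on log2(FPKM + 1) with a Benjamini-Hochberg adjusted p under 0.05, over all genes. The test was checked on simulated data with independent noise and far fewer changed genes than passed here. That check therefore does not cover the setting of these data. Single ratios used an exact two-sided permutation test, which cannot go below 0.1. Peaks counted as shared at 1 base of overlap. No whole reads could be recovered, so depth and counting error are unknown. The limma p-values weigh the genotype difference against the spread between the 3 replicates of each genotype, moderated across all genes tested. The genes and lists were chosen with earlier results of these data known. The text names all 10 genes, Mettl14, tested or directly related genes of the Hedgehog, hypertrophy, osteoblast, Dlx and relatives lists, and the 5 genes most like Panx3. The markers Col10a1, Mmp13, Bglap, Fgf8, Sp8, Hoxd13, Prrx1, Msx1 and Tbx4 were added after their values were seen. A gene of the osteoblast list is not reported here and was left out of its counts. Alternatives varied the pseudocount, minimum, scaling, replicate block, left-out library and peak threshold. Those on the lower minimum for single genes were chosen after seeing the data. Equal replicate numbers did not pair the libraries: deviations of same-numbered libraries correlated at -0.0840, 0.0399 and -0.196.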

Additional observations from a re-analysis of the deposited data

How the results depend on the processing

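Of the 10 genes, 4 passed at a minimum of 1 FPKM, 7 at 0.5 FPKM, 7 after rescaling each library to TPM, where all 10 and 17317 genes in all reached the minimum of 1, and 2 to 5 with single libraries left out. Over all genes 4912 passed, and 2758 to 5109 with single libraries left out, with 3032 without cKO replicate 2 and 2758 without cHet replicate 2. With the replicate number as a block, a pairing the data did not bear out (not every library correlated best with its own number), 2889 genes passed, 3 of them among the 10. There Pth1r had an adjusted limma p of 0.0764, and with the block at a minimum of 0.5 FPKM Ibsp had 0.0602. Rescaling to TPM moved the median log2 change to 0.103 over 17317 genes, from -0.003 over 13575 genes as deposited. It split the calls into 4110 that rose and 1586 that fell (72.2% higher), against 2535 and 2377 (51.6% higher) as deposited. Panx3, Phex and Dlx6 kept their direction and call under every alternative that tested them. Requiring 50% reciprocal overlap left 10 cKO and 13 cHet peaks without counterpart. At a log2 enrichment of at least 2, 0 of 5 cKO peaks (22.4% of the whole list) and 6 of 11 cHet peaks (40.8% of the whole list) had none. At an adjusted p under 0.001 this held for 1 of 18 cKO peaks (20.4% of the whole list) and 6 of 21 cHet peaks (12.0% of the whole list). The share of cKO peaks lay below that of its list except under reciprocal overlap. FPKM without counts limits what can be said of Ibsp, Ihh, Spp1 and other genes near the floor, and a single peak list per genotype gives no error for any peak.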
